A study of Mus musculus with 12 samples.

Results

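The 10 genes described here belong to the growth signalling of the exercised heart, and they were followed in 12 bulk RNA libraries: Cebpb, Cited2, Cited4, Igf1, Igf1r, Akt1, Eif4ebp1, Nrg1, Erbb4 and Mtor. The members were chosen by symbol, all 10 were found among the 55401 rows of the count table, and all 10 were among the 16213 genes that passed the filter on low counts. The hearts came from wild-type mice of C57BL/6J, an inbred laboratory strain, in 4 groups of 3 libraries: females after exercise, sedentary females, males after exercise and sedentary males. Exercise meant 6 weeks of treadmill sessions of 45 min at 1 km/h, 5 a week. Sedentary mice, matched in age, spent the 6 weeks in their cages. The sources used here give neither the age of the mice, nor the trimming of the hearts, nor a batch. The labels do not say that each library is a separate animal, so p-values measure the spread between these libraries. In bulk tissue, fewer cells of a type and less RNA per cell cannot be told apart.

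Endurance training enlarges the heart without the scarring of disease, and these genes belong to the signals studied most for that growth. Insulin-like growth factor 1 (Igf1) binds its receptor (Igf1r), which works through the kinase AKT (Akt1) and the kinase mTOR (Mtor). mTOR phosphorylates 4E-BP1 (Eif4ebp1), a repressor that otherwise holds the cap-binding factor eIF4E, and so releases protein synthesis. Neuregulin 1 (Nrg1), made in the heart largely by endothelial cells, acts on the receptor tyrosine kinase ErbB4 (Erbb4) of heart muscle cells. C/EBPβ (Cebpb) is a transcription factor reported to fall in the trained mouse heart, which releases the coactivator binding protein CITED4 (Cited4). CITED2 (Cited2), of the same family, competes with hypoxia-inducible factor for the coactivators CBP and p300. Most of this control acts on phosphorylation, which RNA levels do not show.

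The libraries held 22204349 to 32566240 counts. Mitochondrial genes held 27.3% of the counts of female sedentary 2 and none in the other 11 libraries. The filter removed those genes, and the counts left ran from 22185330 to 26585651. All 8 cardiomyocyte markers were present, with a summed level of 60800 to 70800 CPM (counts per 1000000 of the scaled library size) in the 12 libraries. Xist stood at 141 to 191 CPM in females and 0.236 to 1.53 CPM in males, so the labels of sex held. Atrial transcripts set 3 female libraries apart: a score over atrial markers, centred on the mean of all libraries, was 3.94 in female exercised 2, while female sedentary 1 had 3.49 and female sedentary 2 had 2.37, and at most 0.47 in the others. Red cell markers summed to 3630 and 1750 CPM in female sedentary 1 and 2, to 293 CPM in female exercised 2 and to no more than 86.2 CPM elsewhere. Leaving out these 3 libraries leaves 2 exercised and 1 sedentary female library, so every such fit with sedentary females rests on female sedentary 3 and takes its spread from the other groups. In that fit the exercise difference in females was 0.72 ± 0.87 (SE, log2) for Cebpb, 0.42 ± 0.26 for Cited2, 0.19 ± 0.43 for Cited4, 0.03 ± 0.21 for Igf1, -0.04 ± 0.26 for Igf1r, 0.04 ± 0.20 for Akt1, -0.78 ± 1.05 for Nrg1, 0.03 ± 0.21 for Erbb4 and 0.16 ± 0.11 for Mtor, and the value of Eif4ebp1 stands with its other results.

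The promoters of 4 members are shown, and no result below rests on them. Cited2 separated exercised from sedentary hearts, Cebpb and Cited4 are its companions in the growth programme, and Mtor separated the sexes. Each runs from 250 bases before to 50 bases after the RefSeq start site, 5′ to 3′ on the plus strand of GRCm38.p6. Capitals mark exact matches, to CCAAT (the CCAAT box), TATAAA (the TATA box), CACGTG (the E-box) and TGACG (the core of a cAMP response element), or to their reverse complements, and no matches overlapped.
Cited2: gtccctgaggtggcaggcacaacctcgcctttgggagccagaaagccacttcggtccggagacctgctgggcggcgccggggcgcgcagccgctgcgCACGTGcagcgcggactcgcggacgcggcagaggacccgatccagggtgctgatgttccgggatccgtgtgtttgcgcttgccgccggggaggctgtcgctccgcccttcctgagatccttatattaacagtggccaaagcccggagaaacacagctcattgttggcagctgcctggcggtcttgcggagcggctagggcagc
Cebpb: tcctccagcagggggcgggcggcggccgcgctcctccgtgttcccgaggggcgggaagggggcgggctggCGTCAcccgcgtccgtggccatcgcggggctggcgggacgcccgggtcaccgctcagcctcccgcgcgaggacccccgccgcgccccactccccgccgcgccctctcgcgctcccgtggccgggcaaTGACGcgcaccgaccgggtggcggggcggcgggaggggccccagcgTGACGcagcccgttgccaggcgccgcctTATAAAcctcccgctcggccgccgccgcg
Cited4: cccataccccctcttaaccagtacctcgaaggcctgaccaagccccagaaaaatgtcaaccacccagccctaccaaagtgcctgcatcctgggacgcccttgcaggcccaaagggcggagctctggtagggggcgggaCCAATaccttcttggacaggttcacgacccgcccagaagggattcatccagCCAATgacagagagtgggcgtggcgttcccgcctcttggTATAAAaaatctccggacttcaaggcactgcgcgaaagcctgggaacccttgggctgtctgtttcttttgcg
Mtor: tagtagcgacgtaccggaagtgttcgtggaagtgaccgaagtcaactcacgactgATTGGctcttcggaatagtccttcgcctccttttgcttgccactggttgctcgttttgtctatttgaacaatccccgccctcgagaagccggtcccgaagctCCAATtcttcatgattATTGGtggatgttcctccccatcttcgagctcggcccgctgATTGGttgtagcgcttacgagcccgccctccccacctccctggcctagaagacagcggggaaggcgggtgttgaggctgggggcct
The Cited2 window lies at chr10:17722978-17723277, that of Cebpb at chr2:167688665-167688964, that of Cited4 at chr4:120666313-120666612 and that of Mtor at chr4:148448332-148448631. RefSeq windows were at hand for 8 of the 10 members, all but Eif4ebp1 and Nrg1. The E-box of Cited2, 153 bases before the start, was the only E-box in these windows, and 7.15% of the 32851 promoters in the table held that motif. Cebpb had 3 core sites of the cAMP response element, which 20.8% of promoters held at least once. It also had a TATA box match, 21 bases after the start. Cited4 had 2 CCAAT boxes and a TATA box, and Mtor had 4 CCAAT boxes. A CCAAT box stood in 37.4% and a TATA box in 13.6% of all promoters, so matches to these are common. The matches describe the letters only.

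Genes can be compared in level only per length, so CPM were divided by the kilobases of annotated exon of each gene. On that scale Cited2 stood first, with a mean of 51.6 CPM per kilobase over the 12 libraries (SD 11.2), next to Akt1 at 47.4 (SD 7.53), Cebpb at 36.4 (SD 14.4) and Eif4ebp1 at 29.9 (SD 6.83). These 4 genes ranked at percentile 91.8 or above among the genes tested. Neighbours among them changed places between libraries: Cited2 was above Akt1 in 8 of 12, Akt1 above Cebpb in 10 of 12 and Cebpb above Eif4ebp1 in 8 of 12. Cited4 followed at 15.1 (SD 3.2), below Eif4ebp1 in 11 of 12 libraries, and Mtor at 6.47 (SD 0.76), below Cited4 in 11 of 12.

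The receptors and ligands were scarce. Igf1r averaged 1.49 CPM per kilobase (SD 0.212), Igf1 0.986 (SD 0.151), Erbb4 0.528 (SD 0.0422) and Nrg1 0.135 (SD 0.0714), in this order in all 12 libraries. Nrg1, at percentile 4.47, rested on 5 to 58 reads per library, against 133 to 178 for Erbb4 and 197 to 299 for Igf1. Its differences had the largest SE of the 10. The spread between libraries also differed among the genes. The highest library held 13 times the lowest for Nrg1 and 8.06 times for Cebpb, against 1.31 times for Erbb4 and 1.47 times for Mtor.

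**Figure D1:**
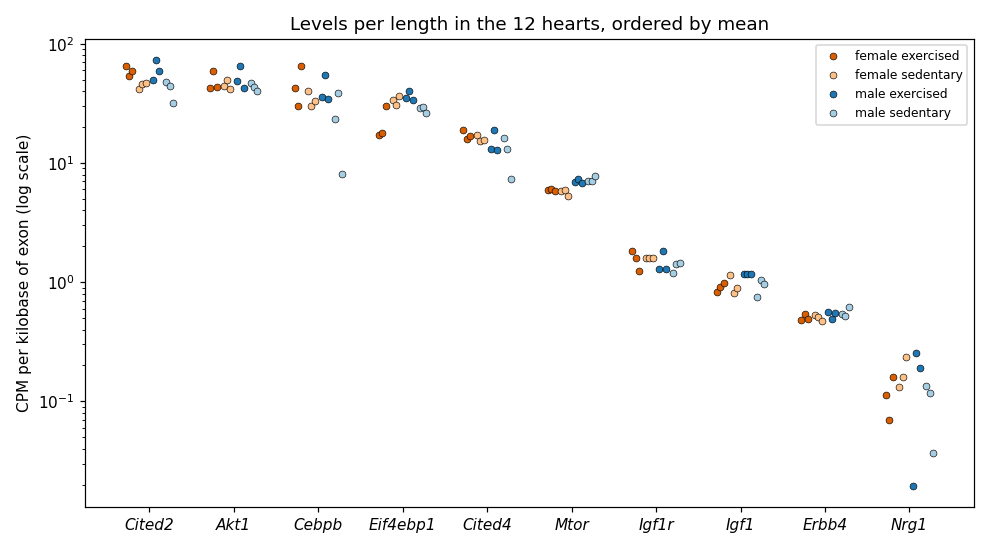
Each point is 1 library, with the level in CPM per kilobase of exon on a log axis and the genes ordered by their mean over the 12 libraries. Cited2, Akt1, Cebpb and Eif4ebp1 overlap at the top, and Igf1r, Igf1, Erbb4 and Nrg1 form a lower tier, Nrg1 with the widest spread.

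The first question was which of these genes differed between exercised and sedentary hearts of either sex. No member passed at an adjusted p of 0.05 (edgeR's quasi-likelihood test, Benjamini-Hochberg over all genes) in females or in males, where the share of all genes called was 0% in both. At an unadjusted p under 0.05 there were 2 of 10 members in females, against 3.93% of all genes (637 genes), and 2 of 10 in males, against 7.84% (1271 genes). In females 5 of 10 members lay above 0, with a median log2 difference of 0.03, and in males 8 of 10, with a median of 0.31. Over all genes 50.1% lay above 0 in each sex, with a median of 0.00. DESeq2 and limma's voom also called 0 members in either sex. The groups did not overlap for Cited2 and Eif4ebp1 in females (9.79% of all genes did not overlap) and for Cited2, Igf1 and Eif4ebp1 in males (12.3%).

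**Figure D2:**
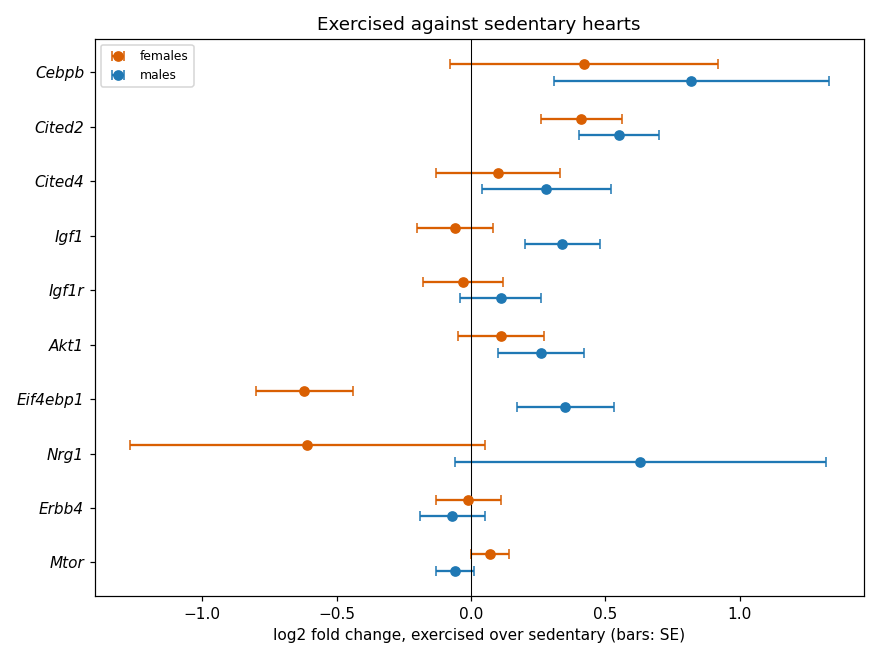
Points give the log2 fold change of exercised over sedentary hearts for each gene in females (upper point of each pair) and males (lower point), with the SE as bars. Cited2 lies above 0 in both sexes, at 0.41 and 0.55, and Eif4ebp1 on opposite sides of 0, at -0.62 in females and 0.35 in males.

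Cited2 was higher in every exercised library than in every sedentary library. In females it had 159, 133 and 146 CPM in exercised hearts, against 103, 114 and 114 CPM in sedentary hearts. In males it had 122, 179 and 146 CPM in exercised hearts, against 117, 109 and 79.0 CPM in sedentary hearts. The 6 exercised hearts thus did not overlap the 6 sedentary ones, which held for 29 of 16213 genes (0.179%), 23 of them (0.142%) higher after exercise. The log2 difference was 0.41 ± 0.15 (SE) in females and 0.55 ± 0.15 in males, and 0.48 ± 0.11 as the mean over both sexes. Its adjusted p by edgeR's quasi-likelihood test was 1 in females, 0.588 in males and 0.766 for the mean effect, where 0% of genes were called. The unadjusted p of the mean effect was 0.000897 by edgeR, rank 19 of all genes, and 6.28% of genes were under 0.05. DESeq2 called the mean effect (0.48 ± 0.11, adjusted p = 0.0227 by DESeq2), with its adjustment over 10846 genes, against 16213 in edgeR. Across fits that each left out 1 library, the mean effect ran from 0.40 to 0.54, and its adjusted p by edgeR from 0.34 to 0.938. It was 0.49 ± 0.16 without the 3 libraries with atrial transcripts (adjusted p = 0.994 by edgeR).

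Immediate early genes were also measured. All 10 listed genes of that kind (Fos, Jun, Egr1 and others, which answer acute stimuli) lay above 0 in both sexes, with medians of 0.43 in females and 0.64 in males, and none passed the test. Their summed level was 8030 to 8940 CPM in exercised and 5860 to 6710 CPM in sedentary females, and 5020 to 9810 CPM in exercised and 3450 to 5790 CPM in sedentary males, so the groups overlapped in males. In the order of the replicates, the sum was 7290, 9810 and 5020 CPM in exercised males and 3450, 5500 and 5790 CPM in sedentary males. Cited2 in the same libraries was at 122, 179 and 146 CPM and at 117, 109 and 79.0 CPM. Macrophage markers, 8 of 8 above 0 in both sexes, summed to 267 to 291 CPM in exercised and 199 to 276 CPM in sedentary females, and to 192 to 268 CPM in exercised and 154 to 245 CPM in sedentary males. Endothelial markers summed to 1060 to 1150 CPM in exercised and 1080 to 1280 CPM in sedentary females, and to 1180 to 1240 CPM in exercised and 1140 CPM in each of the sedentary males. The part of these cells and signals in the Cited2 difference was not tested.

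Cebpb did not separate the groups, and it lay above 0 in both sexes. It had 64.3, 45.0 and 98.3 CPM in hearts of exercised females, against 61.1, 45.1 and 49.4 CPM in sedentary females. Exercised males had 54.2, 81.8 and 52.0 CPM, against 35.1, 58.7 and 12.2 CPM in sedentary males. The groups overlapped in both sexes, and single libraries carried the means: female exercised 3 was the highest of all 12 and male sedentary 3 the lowest. The log2 difference was 0.42 ± 0.50 (SE, adjusted p = 1 by edgeR) in females and 0.82 ± 0.51 (adjusted p = 0.708) in males. It became 0.07 in females without female exercised 3, and ran from 0.42 to 1.39 in males when 1 library was left out. The gene is a single exon at chr2:167688915-167690418 on the plus strand, and 312 of its 1504 bases are also exon of Tmem189, on the other strand. Tmem189 had 16.5 to 20.3 CPM in all, and where counting was without strand, reads of that stretch cannot be told apart.

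Cited4 differed little. It had 23.5, 20.0 and 21.1 CPM in hearts of exercised females, against 21.5, 18.9 and 19.6 CPM in sedentary females, a log2 difference of 0.10 ± 0.23 (SE). Exercised males had 16.2, 23.8 and 16.1 CPM, against 20.2, 16.4 and 9.21 CPM in sedentary males, a difference of 0.28 ± 0.24. The groups overlapped in both sexes. In males the value was 0.02 without male sedentary 3 and 0.54 without male sedentary 1, and in females it ran from 0.04 to 0.16.

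Igf1, the ligand, stood at 11.7, 11.5 and 11.5 CPM in exercised males, against 7.47, 10.3 and 9.64 CPM in sedentary males. Every exercised male library was thus above every sedentary one, with a log2 difference of 0.34 ± 0.14 (SE) and an adjusted p of 0.627 by edgeR. In females it had 8.20, 9.04 and 9.68 CPM in exercised hearts, against 11.3, 8.02 and 8.79 CPM in sedentary hearts. There the groups overlapped, with a difference of -0.06 ± 0.14. The difference between the sexes in this effect was -0.40 ± 0.20 (females minus males) and did not pass (adjusted p = 0.93 by edgeR). Igf1 is transcribed from chr10:87858265-87937042 on the plus strand, and liver, the main source of circulating IGF-1, was not measured here.

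Igf1r, the receptor, had 30.5, 26.9 and 21.0 CPM in hearts of exercised females, against 26.9, 26.9 and 26.5 CPM in sedentary females. Exercised males had 21.5, 30.3 and 21.4 CPM, against 20.0, 23.7 and 24.3 CPM in sedentary males. The means were close, at -0.03 ± 0.15 (SE) in females and 0.11 ± 0.15 in males on the log2 scale, while the SD in exercised females was 4.78 CPM and that in sedentary females 0.242 CPM. Akt1, the kinase below the receptor, had 175, 245 and 179 CPM in hearts of exercised females, against 181, 202 and 173 CPM in sedentary females. Exercised males had 201, 265 and 175 CPM, against 194, 177 and 163 CPM in sedentary males. The groups overlapped in both sexes, and the log2 difference was 0.11 ± 0.16 in females and 0.26 ± 0.16 in males. In females that value became -0.07 without female exercised 2, the library with the most atrial transcript.

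Male exercised 2 stood out within its group. It was the highest of the 3 exercised males for 8 of the 10 members and the highest of all 12 libraries for 5 of them (Cited2, Cited4, Akt1, Eif4ebp1 and Nrg1). Male sedentary 3 was the lowest of all 12 for 4 (Cebpb, Cited2, Cited4 and Akt1) and the highest for 2 (Erbb4 and Mtor). Without male exercised 2, the male difference was 0.40 for Cited2, 0.08 for Akt1 and -0.08 for Igf1r.

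**Figure D3:**
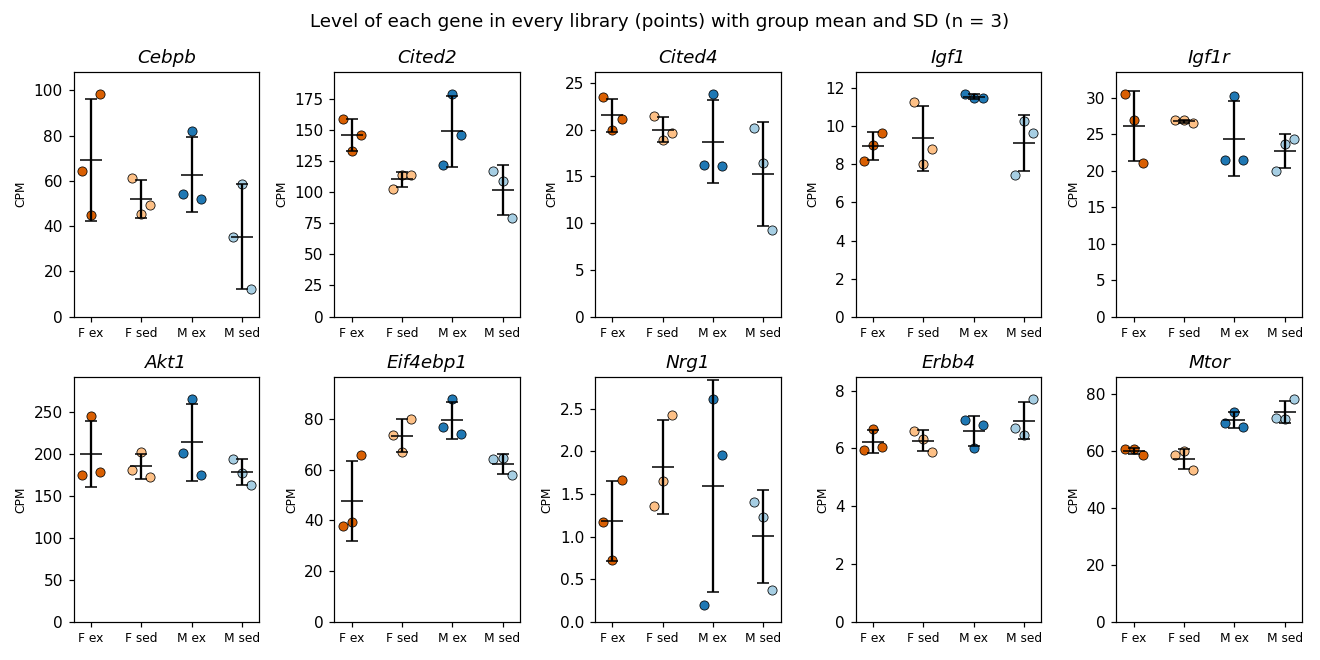
Each panel shows 1 gene in CPM from 0, with the 3 libraries of each group as points and the mean and SD as bars (F, female; M, male; ex, exercised; sed, sedentary). Cited2 is higher in all exercised hearts, Eif4ebp1 is lower in exercised females and higher in exercised males, and Mtor is lower in all female hearts.

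Eif4ebp1, the translational repressor, differed in opposite directions in the sexes. It had 37.8, 39.4 and 65.9 CPM in hearts of exercised females, against 73.5, 67.0 and 79.8 CPM in sedentary females. Exercised males had 76.8, 87.7 and 73.9 CPM, against 64.1, 64.7 and 57.9 CPM in sedentary males. All exercised females thus lay below all sedentary females and all exercised males above all sedentary males, a pattern of 40 genes (0.247%), while 102 genes (0.629%) had no overlap in opposite directions either way. The log2 difference was -0.62 ± 0.18 (SE, adjusted p = 1 by edgeR) in females, which is 0.65 times the sedentary level, and 0.35 ± 0.18 (adjusted p = 0.64) in males. The difference between these effects was -0.97 ± 0.25 (females minus males), rank 32 of all genes by edgeR's quasi-likelihood test (unadjusted p = 0.00275, adjusted p = 0.93), where 0% of genes were called and 4.74% had an unadjusted p under 0.05.

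The statistical call on Eif4ebp1 depended on 1 library and on the tool. Female exercised 3, at 65.9 CPM, lay nearest the sedentary females. Without it the female difference was -0.93 ± 0.10 (adjusted p = 0.00474 by edgeR) and the difference between the sexes -1.28 ± 0.13 (adjusted p = 0.00282). Each was the only call, 1 gene of the 16533 tested in that fit. Leaving out female exercised 3 also narrowed the spread within its group. Without female exercised 1 the differences were -0.48 ± 0.18 and -0.83 ± 0.23. Without female exercised 2 they were -0.50 ± 0.19 and -0.85 ± 0.25, and none of these passed. DESeq2 called the difference between the sexes with all libraries in (-0.98 ± 0.24, adjusted p = 0.0339 by DESeq2). It adjusted over 3379 genes there, against 16213 in edgeR, so the adjusted p-values of the tools rest on unlike sets of genes. Without the 3 libraries with atrial transcripts the female value was -0.62 ± 0.27 and the difference between the sexes -0.97 ± 0.32, and neither passed the test, with 1 library in the sedentary female arm. Red cell markers summed to 17.8, 293 and 36.5 CPM in exercised and 3630, 1750 and 34.6 CPM in sedentary females, in the order of the replicates. Of the 5 red cell markers tested, 0 lay above 0 for exercise in females, with a median log2 difference of -3.96. The part of red cells in the result was not tested. Fat cell markers summed to 7.7, 105 and 0.753 CPM in exercised and 14.8, 12.1 and 1.06 CPM in sedentary females, in the order of the replicates, and their part was not tested either. The gene lies at chr8:27260329-27276674 on the plus strand and shares no exon with another gene.

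Mtor, the kinase that acts on 4E-BP1, hardly differed with exercise. It had 60.5, 60.8 and 58.7 CPM in hearts of exercised females, against 58.4, 60.0 and 53.3 CPM in sedentary females. Exercised males had 69.9, 73.8 and 68.4 CPM, against 71.4, 71.3 and 78.1 CPM in sedentary males. The log2 difference was 0.07 ± 0.07 (SE) in females and -0.06 ± 0.07 in males, the smallest SE of the 10 members, and the groups overlapped in both sexes.

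Nrg1, the neuregulin ligand, had exercise differences within either sex that were no larger than their SE. It had 1.17, 0.72 and 1.66 CPM in hearts of exercised females, against 1.36, 1.65 and 2.43 CPM in sedentary females, a log2 difference of -0.61 ± 0.66 (SE). Exercised males had 0.201, 2.61 and 1.96 CPM, against 1.40, 1.23 and 0.378 CPM in sedentary males, a difference of 0.63 ± 0.69. The male value was -0.31 with voom and sample weights, and the lowest library, male exercised 1, held 5 reads. Of its 10351 exonic bases, 482 are also exon of Gm26578 on the other strand.

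Erbb4, its receptor, had the smallest range over the 12 libraries. It had 5.95, 6.68 and 6.06 CPM in hearts of exercised females, against 6.59, 6.33 and 5.88 CPM in sedentary females, and 6.99, 6.03 and 6.81 CPM in exercised males, against 6.72, 6.47 and 7.70 CPM in sedentary males. Its log2 difference was -0.01 ± 0.12 in females and -0.07 ± 0.12 in males. The groups overlapped in both sexes.

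The design also sets female against male hearts. Mtor was lower in females, and it was the only member called: its log2 difference was -0.36 ± 0.07 (SE) between sedentary females and males (adjusted p = 0.0142 by edgeR's quasi-likelihood test), where 2.21% of all genes were called (358 genes, and 68 to 462 when 1 library was left out), and -0.30 ± 0.05 as the mean over exercised and sedentary hearts (adjusted p = 0.00351), where 5.05% were called (818 genes, and 421 to 837 when 1 library was left out), 2.89% as lower. In exercised hearts alone the difference was -0.24 ± 0.07 and did not pass (adjusted p = 0.232), where 0.16% were called. All 6 female libraries, at 53.3 to 60.8 CPM, lay below all 6 male libraries, at 68.4 to 78.1 CPM, which held in this direction for 2.02% of genes. Females had 0.812 times the male level.

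The mean difference of Mtor passed without any 1 library (adjusted p 0.00547 to 0.0117 by edgeR). It also passed under the other settings that kept all libraries (-0.35 to -0.28, highest adjusted p 0.025 by edgeR), of which the threshold of 0.1 could not change it. Without the 3 libraries with atrial transcripts it was -0.36 ± 0.07. The sedentary call was lost without female sedentary 1 (adjusted p = 0.0529 by edgeR), female sedentary 3 (0.0575) or male sedentary 3 (0.0701), with values of -0.37, -0.31 and -0.32. It was also lost without the 3 libraries with atrial transcripts, where the value was -0.47 ± 0.11 (adjusted p = 0.158 by edgeR) and the female arm is female sedentary 3 alone, the library with the lowest Mtor. Mtor stood at 58.4 to 60.8 CPM in those 3 libraries, between the 53.3 CPM of female sedentary 3 and the male libraries. Of the 12 marker lists, 2 did not overlap between the sexes in both conditions. Schwann cell markers, lower in females like Mtor, summed to 33.7 to 39.1 CPM in exercised and 27.4 to 36.3 CPM in sedentary females, against 42.3 to 45.8 CPM in exercised and 37.3 to 45.0 CPM in sedentary males. Fibroblast markers summed to 2540 to 2940 CPM in exercised and 2480 to 2860 CPM in sedentary females. They lay above the 1990 to 2430 CPM of exercised and 2140 to 2280 CPM of sedentary males. In sedentary hearts alone, where Mtor was called, cardiomyocyte markers were lower in females, at 60800 to 62900 against 63900 to 70800 CPM. Exercised hearts overlapped for them, at 63000 to 64000 against 62000 to 69900 CPM. Fat cell and immediate early markers were higher without overlap in sedentary females. The part of any of these lists in the Mtor difference was not tested. Mtor lies on an autosome, at chr4:148448611-148557683 on the plus strand.

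Of the other members, Eif4ebp1, Igf1 and Igf1r had female and male libraries that did not overlap in at least 1 condition, and none of these differences passed edgeR's test. Eif4ebp1 did not overlap between the sexes in either condition and changed sides: females were lower in exercised hearts, at 37.8 to 65.9 CPM against 73.9 to 87.7 CPM in males (-0.74 ± 0.18, adjusted p = 0.195), and higher in sedentary hearts, at 67.0 to 79.8 against 57.9 to 64.7 CPM (0.24 ± 0.18, adjusted p = 0.519). DESeq2 called the exercised difference (adjusted p = 0.00435 by DESeq2), as did edgeR without female exercised 3 (-1.04 ± 0.10, adjusted p = 0.000188). Over all genes DESeq2 called 167 there, and that edgeR fit 26. That difference did not pass without female exercised 1 (-0.59 ± 0.18, adjusted p = 0.516 by edgeR) or female exercised 2 (-0.61 ± 0.19, adjusted p = 0.347). Without the 3 libraries with atrial transcripts, Eif4ebp1 was at -0.62 ± 0.21 in exercised and 0.36 ± 0.25 in sedentary hearts. Igf1 was at 8.20 to 9.68 CPM in exercised females and 11.5 to 11.7 CPM in exercised males (-0.37 ± 0.14, adjusted p = 0.402). Igf1r was at 26.5 to 26.9 CPM in sedentary females and 20.0 to 24.3 CPM in sedentary males (0.24 ± 0.15, adjusted p = 0.416), and its value was 0.22 ± 0.24 without those 3 libraries. In all, 3 of 10 members did not overlap between exercised females and males (14.3% of all genes) and 3 of 10 between sedentary ones (25.0%).

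**Figure D4:**
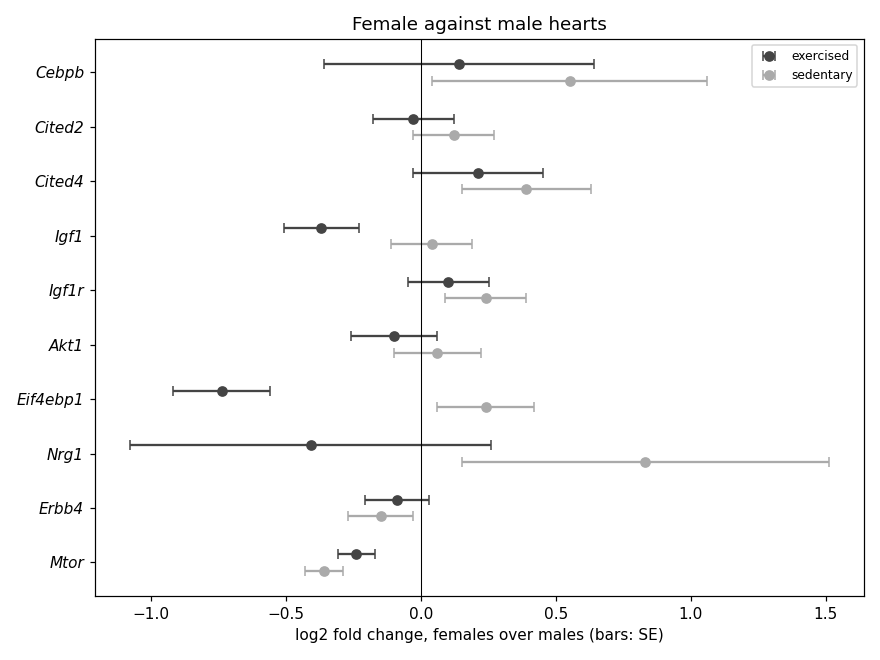
Points give the log2 fold change of females over males for each gene in exercised (upper point of each pair) and sedentary hearts (lower point), with the SE as bars. Mtor lies below 0 in both conditions, at -0.24 and -0.36, and Eif4ebp1 at -0.74 in exercised and 0.24 in sedentary hearts.

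The nearest relatives of each member were read from the same fit, and they were named for kinship. Of the 4E-BP family, Eif4ebp2 averaged 13.6 CPM per kilobase, below Eif4ebp1, and was at 0.03 ± 0.09 (SE, log2) for exercise in females and -0.03 ± 0.09 in males. Eif4ebp3, with 4 to 19 reads per library, was at -0.27 ± 0.46 in females and -1.47 ± 0.47 in males. Neither relative passed the test.

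Among the kinases, Akt2 averaged 32.3 CPM per kilobase, and its exercise difference was 0.00 ± 0.07 in females and 0.02 ± 0.07 in males. Cebpd, an acute-phase relative of Cebpb, was at 0.35 ± 0.38 in females and 0.86 ± 0.38 in males, close to the values of Cebpb itself, and Cebpa at 0.12 ± 0.21 and 0.30 ± 0.21. Cited1 had 2 to 13 reads per library and was not tested. The insulin receptor Insr averaged 11.2 CPM per kilobase, above Igf1r, and was at 0.01 ± 0.09 in both sexes.

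In the ErbB family, Erbb2, the partner with which ErbB4 pairs, averaged 1.78 and Erbb3 1.88 CPM per kilobase, both above Erbb4. Erbb2 was at -0.09 ± 0.17 in females and 0.41 ± 0.17 in males. Nrg2, at 37 to 114 reads per library, was at -0.35 ± 0.23 in females and -0.68 ± 0.25 in males, and Nrg3 had no read. Rptor and Rictor, the scaffolds of the mTOR complexes, averaged 2.88 and 0.93 CPM per kilobase. Their mean difference between females and males was -0.09 ± 0.06 and 0.03 ± 0.08, against -0.30 ± 0.05 for Mtor. None of these relatives passed edgeR's test in an exercise contrast or in the mean sex difference.

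The wider pathway was described with 7 lists of 172 symbols, of which 156 genes were tested. For exercise 0 passed in females and 0 in males; at an unadjusted p under 0.05 there were 2 in females (1.28%, against 3.93% of all genes) and 10 in males (6.41%, against 7.84%). The list medians lay between -0.02 and 0.08 in females and between -0.08 and 0.10 in males on the log2 scale. Of the 18 tested FoxO target genes, which AKT holds down, 16 lay above 0 in females (median 0.08) and 11 in males (0.04). Of the 22 tested ATF4 target genes, a list that also holds Atf4, 12 lay above 0 in females (0.02) and 16 in males (0.10). Atf4 itself was at 0.32 ± 0.16 (SE) in females and 0.16 ± 0.16 in males, against -0.62 and 0.35 for Eif4ebp1.

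The groups did not overlap for 8 of the 156 genes in females (5.13%, against 9.79% of all genes) and for 14 in males (8.97%, against 12.3%). Phlpp1 was the 1 list gene higher without overlap in both sexes (0.641%, against 0.407% of all genes). Phlpp1, a phosphatase that switches AKT off, had 28.4, 26.9 and 30.2 CPM in exercised and 24.8, 26.2 and 26.0 CPM in sedentary females, and 29.0, 30.2 and 29.0 CPM in exercised and 24.1, 28.3 and 25.8 CPM in sedentary males. Its log2 difference was 0.15 ± 0.08 in females and 0.17 ± 0.08 in males. Akt1s1 (PRAS40), an mTOR inhibitor that AKT phosphorylates, was at 66.2, 72.3 and 60.7 CPM in exercised and 58.2, 58.7 and 51.1 CPM in sedentary males (0.25 ± 0.09), and its value in females was -0.13 ± 0.09. Igfbp4, a binding protein that keeps IGF-1 from its receptor, was at 0.20 ± 0.07 in males and -0.05 ± 0.07 in females. Gadd45a, a stress gene and FoxO target, was at 0.69 ± 0.22 in males and 0.34 ± 0.22 in females. None passed edgeR's test (adjusted p 0.615 or more).

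**Figure D5:**
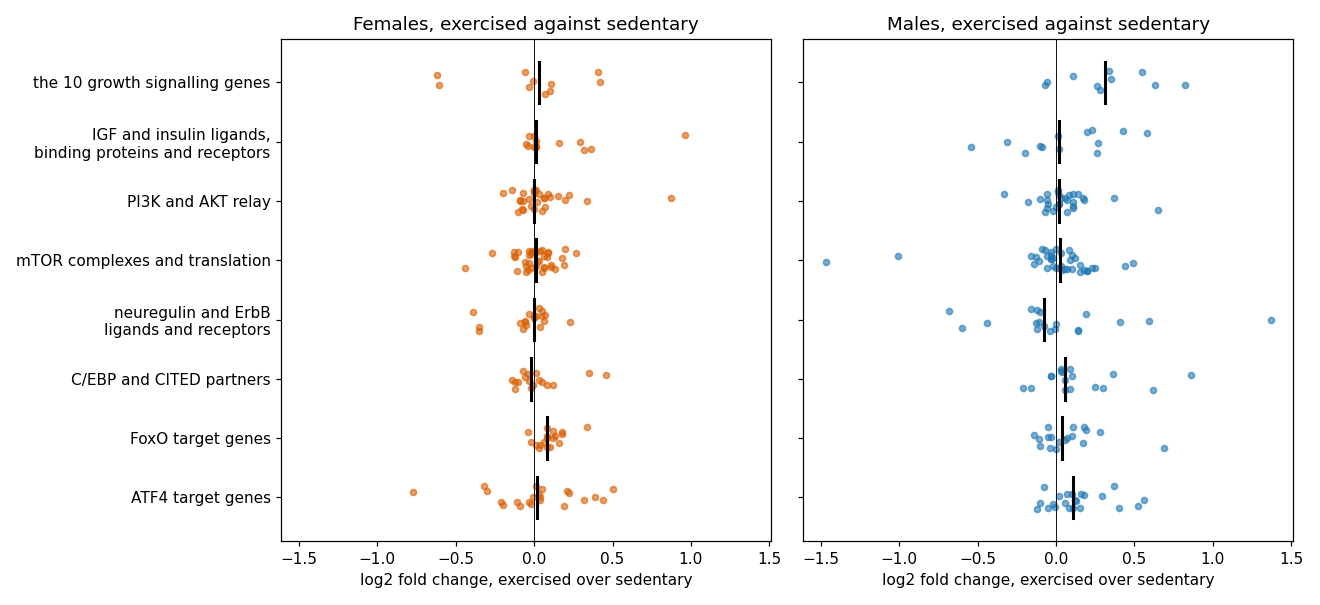
Points are genes, placed by their log2 fold change of exercised over sedentary hearts in females (left) and males (right), with the list median as a black bar. The medians of the 7 lists stay between -0.08 and 0.10, while the 10 growth signalling genes have medians of 0.03 in females and 0.31 in males.

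Between the sexes, 5 of the 156 genes passed for the mean difference, all lower in females (5.05% of all genes were called, 2.89% as lower). Of these, 4 relay or limit PI3K signalling: Grb14, an adaptor that blocks the insulin receptor, at -0.30 ± 0.05 (adjusted p = 0.00661 by edgeR), Pik3ca, the catalytic subunit of PI3K, at -0.22 ± 0.06 (0.0403), Inppl1, a lipid phosphatase, at -0.20 ± 0.05 (0.0344) and Gab1, a docking protein, at -0.22 ± 0.06 (0.0476). The fifth was Sod2, the mitochondrial superoxide dismutase and a FoxO target, at -0.22 ± 0.04 (0.00598), which also passed in sedentary hearts alone (-0.27 ± 0.05, adjusted p = 0.0218). Grb14 had 161, 148 and 174 CPM in hearts of exercised females, against 202, 201 and 198 CPM in exercised males. Over both conditions, female and male libraries did not overlap for Grb14, Pik3ca and Sod2, and they overlapped for Inppl1 and Gab1. With the atrial score as a covariate, or without the 3 libraries with atrial transcripts, 1 of the 156 passed.

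The genes most alike in pattern over the 12 libraries were sought for each member by Pearson's r of log2 CPM, as a description of these libraries that share 4 groups. For Mtor, Npepps, an aminopeptidase, had r = 0.97 and Spearman's rho = 0.99, and r was 0.94 without the 2 libraries farthest from the median of Mtor. For Cited2 they were Zfp775 (r = 0.93, rho = 0.83) and Mrps26 (r = 0.91, rho = 0.88), with 0.81 and 0.77 without its 2 farthest libraries. For Eif4ebp1 they were 5430430B14Rik (r = 0.91, rho = 0.76) and Kcnk2 (r = 0.87, rho = 0.57), with 0.55 and 0.34 without female exercised 1 and 2, so that likeness rests on these libraries. Among 16213 genes some reach a high r over 12 libraries whatever their relation.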

How the data were processed

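Bulk heart RNA of 12 libraries was analysed from a table of raw counts per gene, deposited by the authors without normalization. The submitters' processing notes name Trimmomatic 0.36 for trimming, STAR 2.5.2b for alignment to GRCm38, and featureCounts from Subread 1.5.2; the sources used here give no annotation release or strand setting. Of 55401 rows, 55141 matched GENCODE (GRCm38) without the version number, which gave symbols, coordinates and exon lengths. Sequences are RefSeq's.

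Counts were filtered with filterByExpr, scaled by the trimmed mean of M-values and fitted as 4 group means with edgeR 4.0.16 in R 4.3.3 (quasi-likelihood test, robust spread, 8 residual degrees of freedom, Benjamini-Hochberg over 16213 genes, threshold 0.05). SE is that of the log2 fold change and SD that of CPM (n = 3). Libraries of a group differed beyond sampling noise (chi-square per degree of freedom 9.13 to 33.2). The fit was tested on simulated counts with changes in exercised females. It recovered 61 of 100 genes changed by 1 on the log2 scale and 88 of 100 changed by 2, with 6 false calls. Smaller changes, such as the exercise differences of all members within either sex, were not simulated, so a member not called may still differ.

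Members, the 7 pathway lists, markers and settings were chosen with earlier results of these data known. By rule the text draws on all members, list genes past the test, the 2 of smallest p per list and exercise contrast, and the 2 genes most alike; nearest relatives were added by kinship. Some of these genes are not reported here. Alternatives were 2 other scalings, 2 other filters, spread without robustness, an atrial covariate, leaving out the 3 atrial libraries or each library, fits of only the groups compared, DESeq2 1.42.0, voom of limma 3.58.1 and a threshold of 0.1. DESeq2 adjusted p over the genes it kept in each contrast, from 3379 to 33215, against 16213 in edgeR.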

Additional observations from a re-analysis of the deposited data

Results flagged for a closer look

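Eif4ebp1 drew attention because every exercised female library lay below every sedentary one while every exercised male library lay above every sedentary one. The difference of its exercise effects, females minus males, was -0.97 ± 0.25 (SE, log2), with an adjusted p of 0.93 by edgeR's quasi-likelihood test, so it did not pass when tested directly. It passed without female exercised 3 (-1.28 ± 0.13, adjusted p = 0.00282 by edgeR), a fit that called 1 gene in all. It also passed with DESeq2 (adjusted p = 0.0339 by DESeq2), which called 12 genes in all, over 3379 genes against 16213 in edgeR. It did not pass without female exercised 1 (-0.83 ± 0.23, adjusted p = 0.996 by edgeR) or female exercised 2 (-0.85 ± 0.25, adjusted p = 0.91).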

How the results depend on the processing

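No paired analysis was possible because no number in the library labels is shared between groups. Replicates 1 to 3 were numbered here within each group, in the order of the labels. Over the values reported for members, 318 kept direction and side of the threshold under the settings other than leaving out 1 library, 1 lost its call, 3 gained one and 4 reversed; leaving out 1 library gave 346, 3, 3 and 8. The cause of the changes was not tested. These totals include outcomes that could hardly change. The threshold of 0.1 reused the values of the main fit, so none could reverse or lose a call. Leaving out a library of a group not compared hardly moves the value. Reversed were Erbb4 in females (0.01 with the atrial covariate, 0.03 without the 3 atrial libraries), Igf1 in females (0.03 without those libraries) and Nrg1 in males (-0.31 with voom). Leaving out 1 library, the exercise value ran in females from -0.06 to 0.03 for Erbb4, -0.07 to 0.19 for Akt1, -0.16 to 0.1 for Igf1r and -0.16 to 0.09 for Igf1, and in males from -0.08 to 0.19 for Igf1r and -0.12 to 0 for Erbb4.

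DESeq2 called 1 member each for the difference of exercise effects, the mean exercise effect and exercised females against males, and 0 members passed between sedentary females and males without the 3 atrial libraries, a fit with 1 sedentary female library. Leaving out 1 library, members called ran from 0 to 1 for exercise in females, the difference, and either sex comparison, and from 1 to 2 for the mean sex difference. Of pathway genes between sedentary females and males (1 called), 3 passed with no filter, 0 with the atrial covariate, without the atrial libraries or with only the groups compared, 7 by DESeq2, 3 by voom and 5 at 0.1. For the mean sex difference (5 called) these were 1 with the covariate, 1 without the atrial libraries, 17 by DESeq2, 9 by voom and 21 at 0.1, and DESeq2 called 2 between exercised females and males. Leaving out 1 library gave 0 to 2 and 2 to 7.

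Over all genes, DESeq2 called 1 for exercise in females, 24 in males, 12 for their difference, 11 for the mean exercise effect, 876 between sedentary and 167 between exercised females and males, and 1371 for the mean sex difference. Without the atrial libraries the sedentary count was 14, with 1 female library, and the mean sex count 119. Leaving out 1 library moved the sedentary count (358) by over 1.5 times without female exercised 1 (225) or 2 (234), female sedentary 1 (106), 2 (97) or 3 (131), or male sedentary 1 (135), 2 (236) or 3 (68). It so moved the exercised count (26) without male exercised 1 (55) or 3 (17), and the mean count (818) without female exercised 1 (421) or 2 (545), female sedentary 1 (448), male exercised 3 (451), or male sedentary 1 (521) or 3 (427). By edgeR, exercise counts moved from 0 to 1 in females without female exercised 3 or female sedentary 3. They did so for the difference of exercise effects without female exercised 3, and for the mean exercise effect without male exercised 3. Nrg1 rests on 5 to 58 reads a library.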
